A study of Mus musculus with 24 samples.

Results

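The let-7 family of microRNAs (miRNAs) was followed in small RNA libraries from the subcutaneous adipose tissue of female mice. Its members here were the 9 mature 5p arms let-7a (MIMAT0000521), let-7b (MIMAT0000522), let-7c (MIMAT0000523), let-7d (MIMAT0000383), let-7e (MIMAT0000524), let-7f (MIMAT0000525), let-7g (MIMAT0000121), let-7i (MIMAT0000122) and miR-98 (MIMAT0000545). They were taken by accession from the counts table, with the copies of a member that lies at more than 1 place in the genome summed. This gave 9 of 1907 mature miRNAs, or 12 of 2045 counted loci. The 4 groups of 6 libraries each were: trained kinase dead, sedentary kinase dead, trained wild type and sedentary wild type. Which kinase the kinase dead mice lack in active form, and the strain and age of the mice, are not stated in the labels. Trained mice ran 1 h a day on a motorised treadmill at 16 m/min, 5 days a week for 6.5 weeks, and also had a running wheel. The labels repeat that description for every library, so whether sedentary mice had a wheel is not stated. All groups ate chow and were kept on the same light cycle at the same temperature. Since no label ties a library to its own animal, the p-values below measure the spread between these libraries, which may be technical.

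A miRNA guides a silencing complex to messenger RNAs through its seed, bases 2 to 8 from its 5′ end. The let-7 miRNAs share 1 seed and repress growth-promoting transcripts such as Lin28a, Hmga2, Ras and Myc genes, and LIN28 proteins in turn block the maturation of let-7 precursors. In mice, raised let-7 dampens insulin signalling and glucose tolerance, and in cultured preadipocytes let-7 restrains the proliferation that precedes fat cell differentiation.

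The mature sequences are shown because the members differ at few bases, all outside the seed, and those bases set how far a read can be assigned to 1 member. They are RefSeq sequences (GRCm38.p6), 5′ to 3′, with the seed in capitals. All 9 members were matched.
let-7a-5p: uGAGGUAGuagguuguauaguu
let-7b-5p: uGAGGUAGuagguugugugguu
let-7c-5p: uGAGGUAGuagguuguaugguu
let-7d-5p: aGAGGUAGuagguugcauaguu
let-7e-5p: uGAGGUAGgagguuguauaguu
let-7f-5p: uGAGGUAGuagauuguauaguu
let-7g-5p: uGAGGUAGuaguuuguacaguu
let-7i-5p: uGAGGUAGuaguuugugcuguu
miR-98-5p: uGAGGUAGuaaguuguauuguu
let-7j: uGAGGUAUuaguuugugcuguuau
Every member carried the seed GAGGUAG. Of 1679 mature names in the RefSeq table, 11 had that seed: the 9 members, let-7k with 5970 reads in all 24 libraries together, and miR-1961 with 1 read. Of the 36 pairs of members, 4 differed at 1 base, counting positions from 1 at the 5′ end: let-7a and let-7c at A19G, let-7a and let-7e at U9G, let-7a and let-7f at G12A, and let-7b and let-7c at G17A. The widest pair, let-7d and let-7i, differed at 6 bases. let-7g and let-7i both differed from let-7a at G12U and U18C, and from each other at A17G and A19U. let-7j is no member. It is shown because its first 22 bases differed from let-7i at G8U alone, a base inside the seed, so it carried the seed GAGGUAU.

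The members lie at 12 places in the mouse genome (GRCm38, the build mm10). A cluster on chromosome 13 within exons of the long noncoding RNA 6720427I07Rik holds let-7a-1 (chr13:48538239-48538260), let-7f-1 (chr13:48537889-48537910) and let-7d (chr13:48536078-48536099), all on the minus strand. On chromosome 15, exons of Lncppara hold let-7c-2 (chr15:85706616-85706637) and let-7b (chr15:85707325-85707346). Introns of Huwe1 on the X chromosome hold let-7f-2 (chrX:151912353-151912374) and miR-98 (chrX:151913229-151913250). let-7a-2 (chr9:41536732-41536753) lies in an intron of 3110039I08Rik, and let-7c-1 (chr16:77599672-77599693) in an intron of Mir99ahg, a host that also carries miR-99a. let-7e (chr17:17830366-17830387) lies in an intron of Spaca6 and let-7g (chr9:106178846-106178867) in an intron of Wdr82. let-7i (chr10:122985698-122985719, minus strand) overlaps an exon of the transcribed pseudogene D630033A02Rik. No other counted locus lay opposite any of the 12. The copies of a mature sequence cannot be told apart by reads: of the reads of let-7a, let-7c and let-7f, 50.3%, 50.3% and 48.5% were at the first copy, and no library went beyond 47.9% to 51.7%. A member's total therefore cannot be divided among its genes.

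Library totals ran from 1.60 to 23.6 M counted reads, and 582 mature miRNAs, with all 9 members among them, passed the filter on low counts. Levels are CPM (reads of a miRNA scaled to a common library size), adjusted by TMM, edgeR's correction for library composition. At these depths 3 reads stood for 0.116 to 1.76 CPM on that scale, far below every member. The miRNAs listed as adipose tissue markers, miR-148a-3p, miR-378a-3p and miR-103-3p, together reached 39238 to 69861 CPM over the 24 libraries. None of the 3 was at 0 throughout, and whether they are particular to fat was not tested. Among other marker lists, smooth muscle and stroma summed to 87927 to 187684 CPM, epithelium to 13746 to 27603 and striated muscle to 452 to 8417. The striated muscle median was 3689 CPM (1138 to 6051) in trained and 1516 CPM (653 to 7580) in sedentary wild type. In kinase dead it was 1158 CPM (725 to 2342) in trained and 797 CPM (452 to 8417) in sedentary libraries. The ranges of trained and sedentary libraries overlapped in both genotypes.

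Certain libraries stood apart in ways their labels do not give, and both sets touch the family. In 6 libraries let-7j had 4.09% to 5.93% as many reads as let-7i, against 6.74% to 8.49% in the other 18. These 6 were trained kinase dead 2 and 6, sedentary kinase dead 5 and sedentary wild type 1, 4 and 5, with none in trained wild type. Their totals were 1.60 to 4.74 M reads, against 2.61 to 23.6 M in the other 18, so low totals were not particular to the 6. In the same 6, the family took 14.1% to 17.96% of all reads, against 11.1% to 14.1% in the 18, without overlap, while its TMM-scaled levels overlapped, at 132369 to 171953 CPM against 112416 to 148058 CPM. let-7i is both a member and the denominator of that ratio, and the 6 were picked after their values were seen, so results without them leave out libraries chosen in part by their let-7i level. A move of let-7i, and of let-7g, whose level ran close to it (rho 0.86), is thus partly built into that setting. In 7 libraries the lymphocyte miRNA miR-150-5p stood at 3630 to 6739 CPM, against 541 to 1015 CPM in the other 17: trained kinase dead 3 and 6, sedentary kinase dead 5 and 6, trained wild type 1 and 2, and sedentary wild type 1. The 5 lymphocyte markers, none at 0 throughout the 24 libraries, summed to 1443 to 20366 CPM in trained kinase dead, 1827 to 20165 in sedentary kinase dead, 1542 to 20263 in trained wild type and 1712 to 21478 in sedentary wild type. In both sets were 3 libraries, trained kinase dead 6, sedentary kinase dead 5 and sedentary wild type 1. In whole tissue, fewer cells of a type and less of an RNA per cell cannot be told apart.

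**Figure D1:**
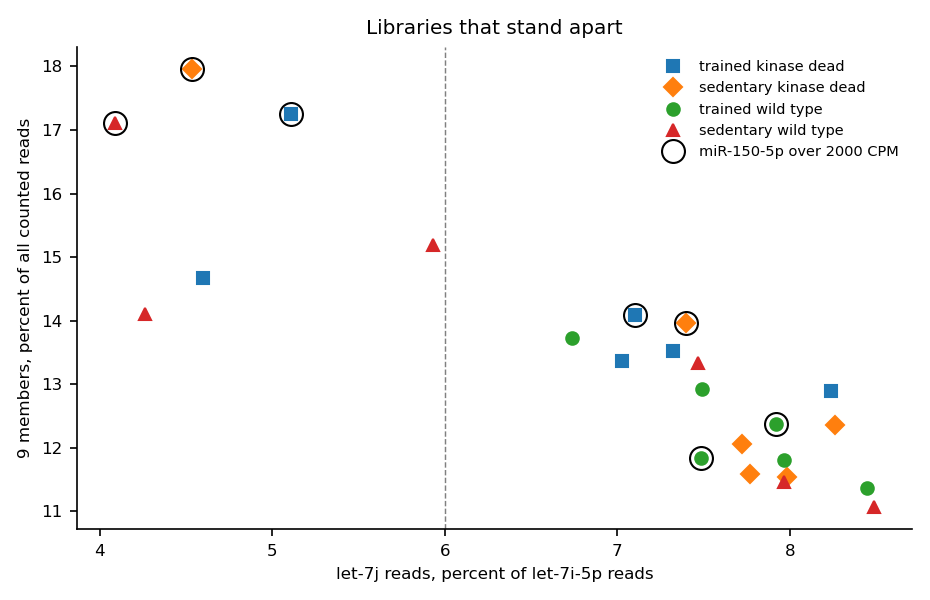
Each point is 1 of 24 libraries, by let-7j reads as a percent of let-7i-5p reads (x axis) and the reads of the 9 members as a percent of all counted reads (y axis); rings mark miR-150-5p above 2000 CPM and the dashed line stands at 6%. The 6 libraries left of the line hold 14.1% to 17.96% of their reads in the family, and the 18 to its right 11.1% to 14.1%.

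The family made up 13.4% of all counted reads on average, or 133638 ± 16231 CPM (SD, n = 24). With the copies of a member summed, let-7f had the highest level, at 34531 ± 5111 CPM, the sixth among all miRNAs. It was followed by let-7g at 24506 ± 4773 CPM, let-7i at 24094 ± 5231 CPM and let-7c at 21989 ± 3566 CPM. A middle tier held let-7b at 12156 ± 1697 CPM and let-7a at 11678 ± 1401 CPM. let-7d at 2838 ± 425 CPM, let-7e at 1300 ± 226 CPM and miR-98 at 548 ± 87.2 CPM were far lower, and miR-98 ranked 102 among all miRNAs. With the reads at 1 copy alone for let-7a, let-7c and let-7f, the order changed: let-7f held 16.4% to 17.2% of the family by group, below let-7g at 24.5% to 24.8% and let-7i at 22.7% to 25.6%, and let-7c held 10.7% to 12.1%, against 12.0% to 12.9% for let-7b. How reads that match several places were counted was not given in the sources used, so the rank of these 3 members rests on the sum. All 9 mature sequences have 22 bases, so length does not enter this order, but ligation and amplification bias between sequences can.

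Neighbours in the order from summed copies were separable only in part. let-7f exceeded let-7g in 24 of 24 libraries, as did let-7c over let-7b, let-7a over let-7d, let-7d over let-7e and let-7e over miR-98. let-7g exceeded let-7i in only 14 of 24 libraries (mean log2 ratio 0.031, SD 0.13), let-7i exceeded let-7c in 13 of 24, and let-7b exceeded let-7a in 16 of 24. Those 3 steps were smaller than the spread of the ratio over libraries.

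The members' coefficients of variation over the 24 libraries ran from 12.0% for let-7a to 21.7% for let-7i, where the 81 tested miRNAs of at least 1000 CPM had a median of 19.6% and quartiles of 16.3% and 24.4%. The highest library exceeded the lowest 1.64-fold for let-7a and 2.31-fold for let-7i. let-7f, let-7g and let-7i were all highest in trained kinase dead 6, a library of both sets above, with 45998, 39431 and 38562 CPM. let-7a, let-7b, let-7d and miR-98 were highest in trained kinase dead 2, which had the second-lowest total, with 14826, 16114, 4107 and 785 CPM. let-7a, let-7b, let-7c and let-7d were lowest in sedentary wild type 2, where let-7c stood at 13886 CPM, against 21111 to 25518 CPM in the other 5 libraries of its group.

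**Figure D2:**
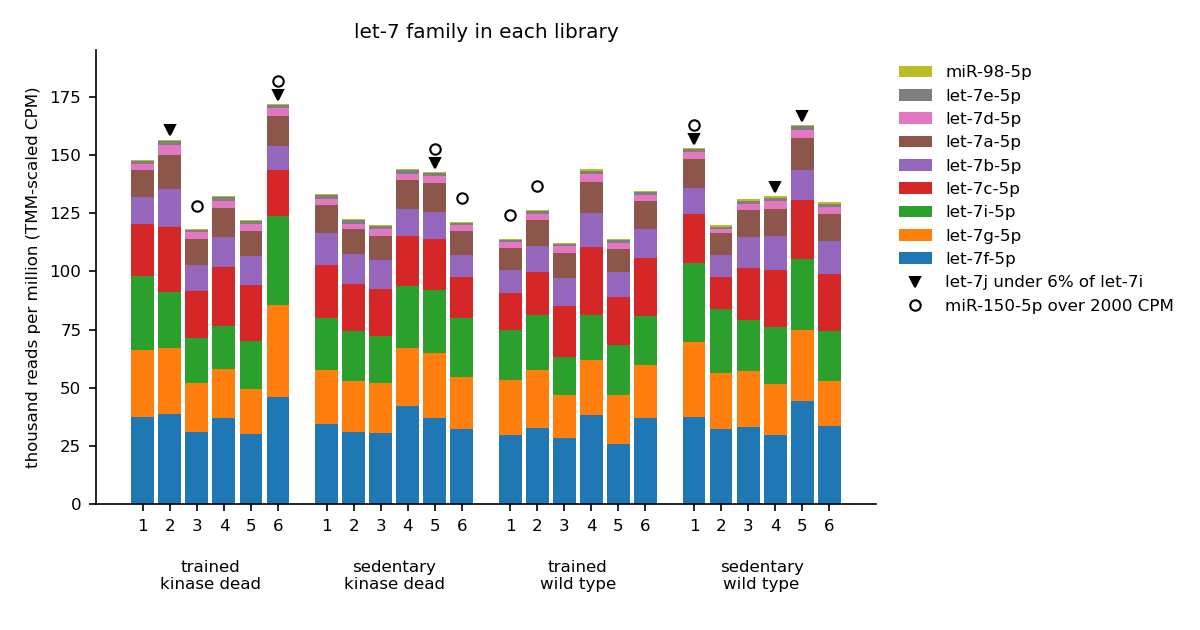
Stacked bars give the TMM-scaled CPM of the 9 members (axis in kilo-CPM) in each of the 24 libraries by group and replicate number; triangles mark let-7j under 6% of let-7i and rings miR-150-5p above 2000 CPM. The sums run from 112416 CPM in trained wild type 3 to 171953 CPM in trained kinase dead 6.

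As a share of the family, let-7f held 25.8% ± 1.54, let-7g 18.3% ± 1.87, let-7i 17.96% ± 2.60, let-7c 16.5% ± 2.43, let-7b 9.18% ± 1.36, let-7a 8.76% ± 0.570, let-7d 2.13% ± 0.256, let-7e 0.977% ± 0.148 and miR-98 0.412% ± 0.0631 (SD, n = 24). The shares of let-7f and let-7a varied least, by 5.97% and 6.51% of their means. let-7i, let-7b and let-7c varied by 14.5% to 14.8%. let-7i held 17.7% ± 3.40 in trained kinase dead, 18.2% ± 1.55 in sedentary kinase dead, 16.8% ± 2.46 in trained wild type and 19.2% ± 2.73 in sedentary wild type (SD, n = 6 each). let-7f held 25.9% ± 1.26, 26.4% ± 1.48, 25.6% ± 1.76 and 25.3% ± 1.80 in the same groups. Over 9 members and 4 pairs of groups there were 36 share differences, and 0 exceeded the pooled SD of their groups. No pair of groups failed to overlap in any share. As a percent of all reads, the whole family held 14.3% ± 1.57 in trained kinase dead and 12.3% ± 0.866 in trained wild type. That difference, 1.96, exceeded the pooled SD of 1.27, though the ranges overlapped. In TMM-scaled CPM the same difference, 17250, was below its pooled SD of 17489.

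In the 7 libraries rich in miR-150-5p, let-7g and let-7i together held 34.4% to 45.4% of the family, against 29.8% to 43.2% in the other 17. let-7b and let-7c held 17.3% to 26.5% in the 7, against 19.5% to 30.4% in the 17. let-7e stood at 901 to 1237 CPM in the 7 and at 946 to 1742 CPM in the 17. These ranges overlap, and the part of lymphoid cells in them was not tested.

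Training and genotype were compared with edgeR's quasi-likelihood test across the 582 miRNAs, with Benjamini-Hochberg adjustment. In each of the 6 comparisons 0 of 582 miRNAs had an adjusted p under 0.05 (0%), and so 0 of 9 members. The DESeq2 Wald test also called 0 in each. At an unadjusted p under 0.05, edgeR counted 31 for training in wild type (5.33%), 14 for training in kinase dead (2.41%), 36 for training averaged over genotypes (6.19%), 13 for the interaction (2.23%), 7 for genotype in sedentary mice (1.2%) and 4 for genotype in trained mice (0.687%). DESeq2 counted 38, 15, 38, 10, 6 and 9 in the same order. Of the 9 members, edgeR gave 1 an unadjusted p under 0.05 in the first comparison and 0 in the other 5. The DESeq2 Wald test gave let-7i an unadjusted p of 0.0289 for training in wild type and 0.0466 for genotype in trained mice. Its adjusted p in that test was 0.742 and 0.998. None of the differences described next is a call, and their directions are given as values.

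In wild type mice the family averaged 124255 ± 13014 CPM in trained and 138142 ± 16302 CPM in sedentary libraries (SD, n = 6 each), and the ranges, 112416 to 143852 against 119805 to 162908 CPM, overlapped. All 9 members had a log2 fold change below 0, from -0.36 to -0.011 with a median of -0.13, where the median of all 582 was 0.012 and 47.9% were below 0. On leaving out 1 library, all 9 stayed below 0 in 20 of 24 fits, 8 did without trained wild type 1 or 2 or sedentary wild type 5, and 7 without sedentary wild type 4; the median ran from -0.22 without trained wild type 6 to -0.10. let-7i had the largest. Its lowest, median and highest levels were 16721, 21369 and 23467 CPM in trained wild type, against 21160, 25823 and 33638 CPM in sedentary wild type. The lowest sedentary library sat about level with the trained median, so the groups overlapped. The log2 fold change was -0.36 (SE 0.16, 95% interval -0.69 to -0.025), with an unadjusted p of 0.0363 and an adjusted p of 0.779 in edgeR's test. let-7g had 18404, 23025 and 24819 CPM in trained wild type, against 19595, 24285 and 32490 CPM in sedentary wild type, and a log2 fold change of -0.19 (SE 0.15). miR-98 had 445, 511 and 600 CPM in trained wild type, against a narrow 567, 586 and 617 CPM in sedentary wild type (-0.21, SE 0.14). let-7c and let-7d, at -0.011 and -0.026, were nearest to 0.

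Depth differed along this comparison. The median total was 3.75 M reads in sedentary wild type (1.60 to 20.9 M), against 10.8 M in trained wild type (4.63 to 13.2 M). The part of depth in these differences was not tested. Low let-7j was found in 3 of the 6 sedentary wild type libraries and in 0 of the trained ones. Without the 6 low let-7j libraries, the log2 fold change of let-7i was -0.15 (SE 0.16), 4 of 9 members were above 0, and the 9 ran from -0.17 to 0.15 with a median of -0.0071. Without the 7 libraries rich in miR-150-5p, let-7i stood at -0.30 (SE 0.15), 4 of 9 members were above 0 and the median was -0.044. let-7i kept a negative value without any 1 library, from -0.48 to -0.28.

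In kinase dead mice the family averaged 141505 ± 21033 CPM in trained and 130651 ± 10927 CPM in sedentary libraries (SD, n = 6 each), with ranges of 118229 to 171953 and 119923 to 144102 CPM. All 9 log2 fold changes were above 0, from 0.012 to 0.22 with a median of 0.098, against a median of 0.012 over all 582, of which 52.1% were above 0. let-7d had the largest: 2610, 2957 and 4107 CPM (lowest, median, highest) in trained kinase dead, against 2405, 2593 and 3026 CPM in sedentary kinase dead, a log2 fold change of 0.22 (SE 0.13) and an adjusted p of 0.994 in edgeR's test. let-7i had 18381, 22304 and 38562 CPM in trained kinase dead and 20267, 23746 and 27063 CPM in sedentary kinase dead. Its median was thus lower and its highest library far higher in the trained group, and its log2 fold change was 0.098 (SE 0.16). Without trained kinase dead 6, and with the filter, scaling and fit redone, it was -0.16. With all 24 libraries kept, all 9 were above 0 under scaling by DESeq2 size factors (median 0.098) or by totals alone (0.086). The same held with only the compared groups fitted (0.095). With no filter or every locus singly 7 of 9 were above 0 (0.058 and 0.076), and with a lymphocyte covariate 8 of 9. The direction of the 9 changed when 1 library was left out and the filter, scaling and fit were redone. All 9 were above 0 in 3 of the 24 such fits, those without sedentary kinase dead 4 or sedentary wild type 4 or 6. In 15 fits 6 of 9 were above 0, and 10 of these left out a wild type library and so kept every library compared. The lowest counts were 5 of 9 without sedentary kinase dead 2, 4 of 9 without sedentary kinase dead 3 and 3 of 9 without trained kinase dead 6. The median of the members ran from -0.059 to 0.14 over the 24 fits, with a middle value of 0.023. Without the 6 low let-7j libraries 6 of 9 were above 0, with a median of 0.025, and without the 7 rich in miR-150-5p 7 of 9, with a median of 0.032.

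**Figure D3:**
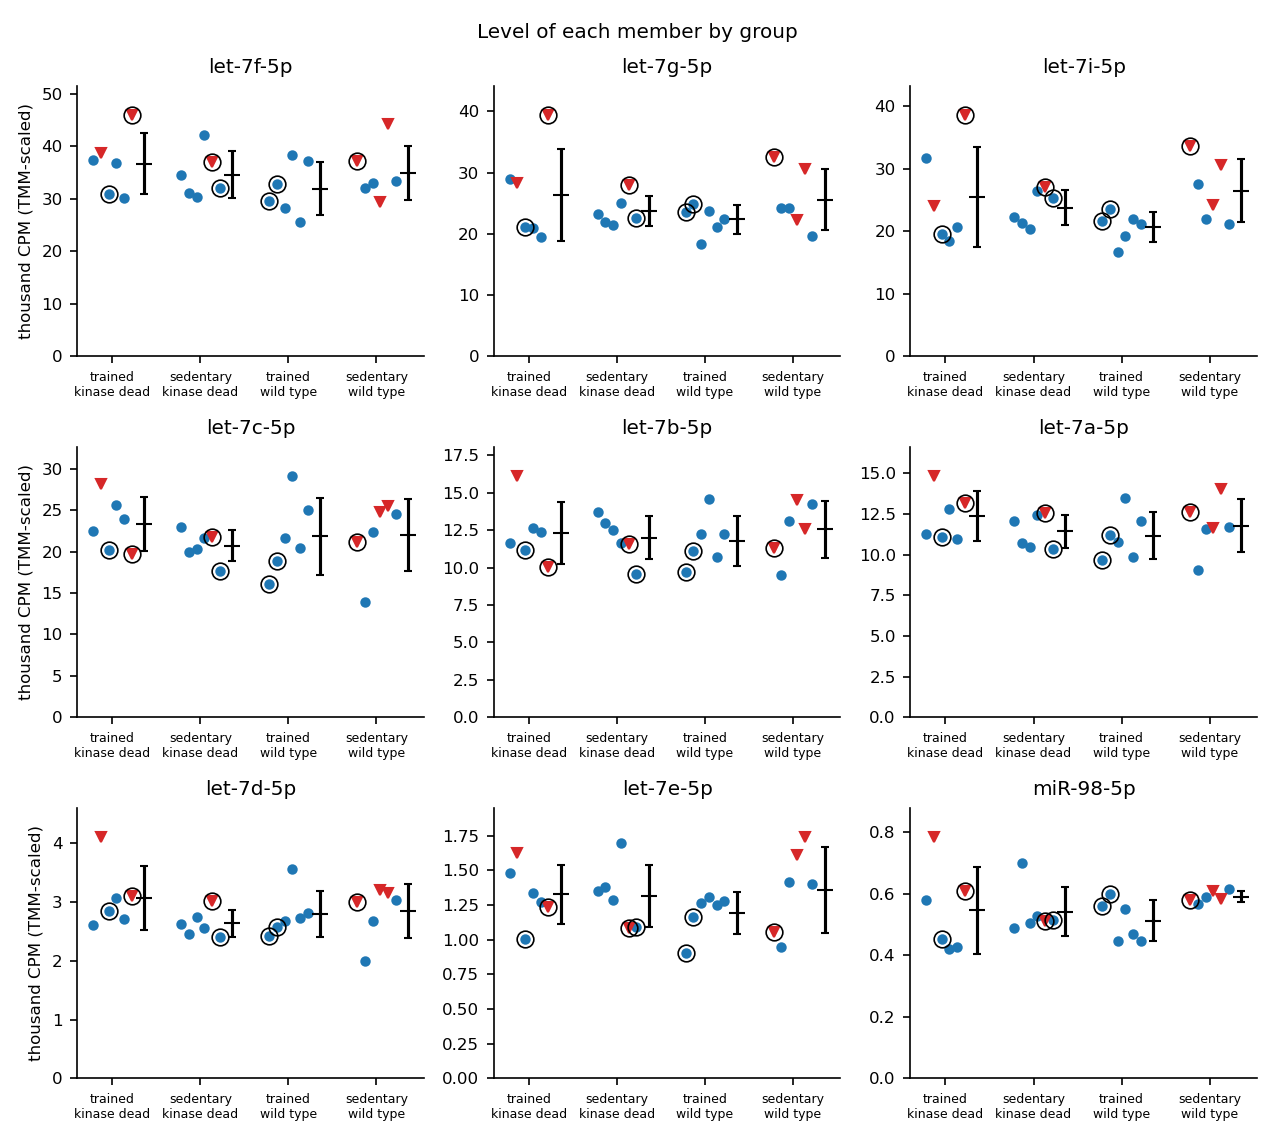
Each panel gives 1 member's TMM-scaled CPM (axis in kilo-CPM) in the 6 libraries of each group (points), with the mean and SD to their right; triangles mark libraries with let-7j under 6% of let-7i and rings those above 2000 CPM of miR-150-5p. The 4 groups overlap in every panel, and let-7g and let-7i reach their highest values, 39431 and 38562 CPM, in trained kinase dead 6.

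The interaction, the training difference in kinase dead minus that in wild type, tests whether both genotypes responded alike. It was above 0 for 9 of 9 members, from 0.13 for let-7b to 0.46 for let-7i, with a median of 0.21 on the log2 scale against 0.019 over all 582, of which 52.2% were above 0. For let-7i it was 0.46 (SE 0.23, 95% interval -0.015 to 0.93), with an unadjusted p of 0.0569 and an adjusted p of 0.993 in edgeR's test. let-7g had 0.35 (SE 0.21). No member's interval excluded 0. All 9 stayed above 0 without any 1 library, with filter, scaling and fit redone each time, but the size moved. let-7i was 0.22 without trained kinase dead 6. The median of the 9 was 0.083 without sedentary wild type 5 and 0.12 without sedentary kinase dead 3 or trained kinase dead 6. It was 0.13 without sedentary kinase dead 2 and 0.14 without trained wild type 1. Without the 7 libraries rich in miR-150-5p the median was 0.089 and let-7i 0.33 (SE 0.22). Without the 6 low let-7j libraries the interaction of let-7i was 0.15 (SE 0.22), the median of the 9 was 0.022, and 3 of 9 lay below 0. The interaction takes in the same 4 groups as the other comparisons, so it is no separate evidence of direction.

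Averaged over genotypes, training gave 3 members above 0 and 6 below, from -0.13 for let-7i to 0.098 for let-7d, with a median of -0.022 against 0.0079 over all 582. The median moved by over 1.5 times in all 24 leave-one-out fits, between -0.11 without trained kinase dead 6 and -0.0080 without sedentary kinase dead 4. The 95% intervals reached 0.16 to 0.24 log2 units either side of each value. let-7i, at -0.13 (SE 0.11), had an adjusted p of 0.959 in edgeR's test. For let-7f the value was -0.022 with an interval of -0.20 to 0.16.

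Between genotypes, all 9 members lay below 0 in sedentary mice, between -0.16 and -0.015 with a median of -0.089 for kinase dead over wild type, against -0.024 over all 582, of which 53.4% were below 0. This too changed when 1 library was left out: all 9 were below 0 in 3 of 24 leave-one-out fits, those without trained kinase dead 2, sedentary kinase dead 4 or sedentary wild type 6. In 4 fits 8 were below 0, in 10 fits 6 (8 of them without a trained library, so with every compared library kept), in 5 fits 5, and 4 without sedentary wild type 1 or 5. The median ran from -0.079 to 0.0043 over the 24 fits, and 20 of them moved it by over 1.5 times. let-7f, at -0.015, turned positive (0.0081 and 0.016) when libraries were scaled by DESeq2 size factors or by totals alone. Under both scalings 8 of 9 members were below 0, with medians of -0.071 and -0.067. With only the compared groups fitted all 9 were below 0 (median -0.093), and with no filter 5 were (-0.0067). In trained mice all 9 lay above 0, from 0.068 for let-7b to 0.30 for let-7i, with a median of 0.15 against 0.013 over all 582, of which 52.1% were above 0. With DESeq2 size factors or totals alone, 60.0% and 58.6% of all 582 were above 0, and the members' medians were 0.19 and 0.17. On leaving out 1 library all 9 stayed above 0 in 23 of 24 fits and 8 did without trained kinase dead 2, and the median reached 0.25 without trained kinase dead 1. Without the 7 libraries rich in miR-150-5p it was 0.077, and without the 6 low let-7j libraries 0.063, with 8 of 9 above 0 in both. let-7i had 18381, 22304 and 38562 CPM in trained kinase dead and 16721, 21369 and 23467 CPM in trained wild type, a log2 fold change of 0.30 (SE 0.16, 95% interval -0.032 to 0.63). let-7f had 30148, 37155 and 45998 CPM in trained kinase dead and 25594, 31172 and 38274 CPM in trained wild type (0.20, SE 0.13). The adjusted p was 0.996 for every member in edgeR's test. With the scaling redone, the value of let-7i was 0.14 without trained kinase dead 6, and also 0.14 without the 6 low let-7j libraries. The comparisons share groups: sedentary wild type is the baseline of training in wild type and of genotype in sedentary mice, and trained kinase dead enters both training in kinase dead and genotype in trained mice.

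**Figure D4:**
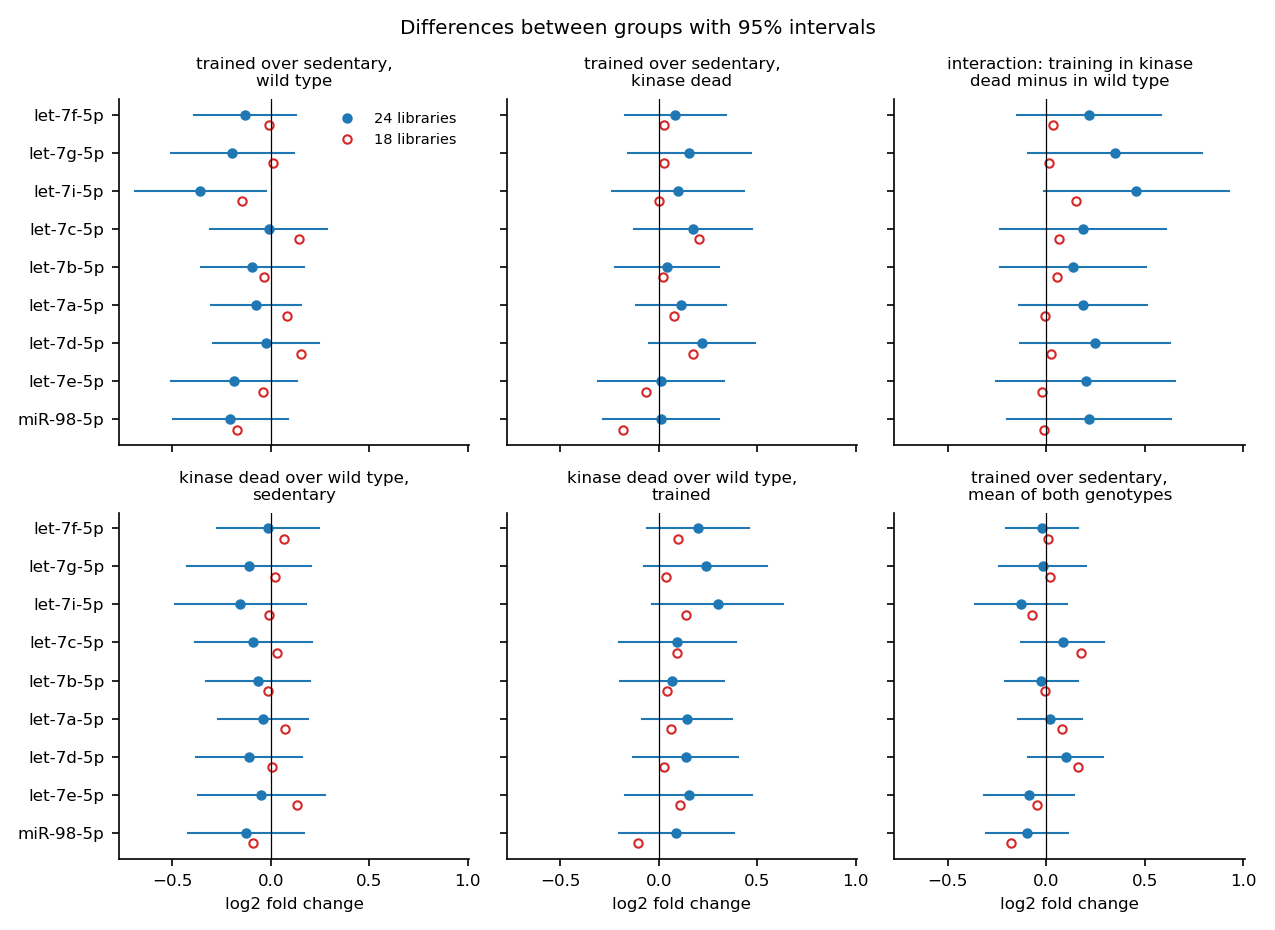
Log2 fold changes of the 9 members (filled points, with 95% intervals as lines) in 6 comparisons, and the same without the 6 libraries with let-7j under 6% of let-7i (open points, 18 libraries). Every interval takes in 0 except that of let-7i for training in wild type, -0.69 to -0.025, and the open points lie nearer 0 for let-7g and let-7i in every comparison; those 6 libraries were chosen by a ratio that has let-7i as its denominator.

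The members did not move as 1 block across libraries. With group means removed, Spearman's rho between the log2 levels of 2 members had a median of 0.378 over 36 pairs and was above 0 in 29 (24 libraries). let-7g and let-7i, which lie on different chromosomes, were the most alike at 0.86. let-7b and let-7c stood at 0.83, let-7a and let-7f at 0.82, and let-7a and let-7d at 0.78. let-7i went against let-7b at -0.52 and against let-7c at -0.24. let-7f lay between, with 0.77 to let-7g and 0.37 to let-7c. miR-98 was most like let-7g, at 0.52. Without the 6 low let-7j libraries the values were 0.77 for let-7g and let-7i, 0.90 for let-7b and let-7c, and -0.56 for let-7b and let-7i. Without the 7 rich in miR-150-5p they were 0.77, 0.82 and -0.29. All values of a library share its depth and scaling factor, so these are descriptions.

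Sequence and likeness ran partly together. The 4 pairs that differ at 1 base had rho from 0.50 to 0.83, with a median of 0.78. The 10 pairs with 2 differences had a median of 0.49, the 11 with 3 had 0.22, and the 9 with 4 had 0.24. let-7g and let-7i, the pair with the highest value, differ at 2 bases. let-7c and miR-98 also differ at 2 and had -0.052. A read with 1 wrong base can move between members that differ at 1 base, and the alignment allowed a number of mismatches not given in the sources used here. Its part in the likeness was not tested. let-7b and let-7c share a host on chromosome 15, and let-7c has its other copy on chromosome 16.

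**Figure D5:**
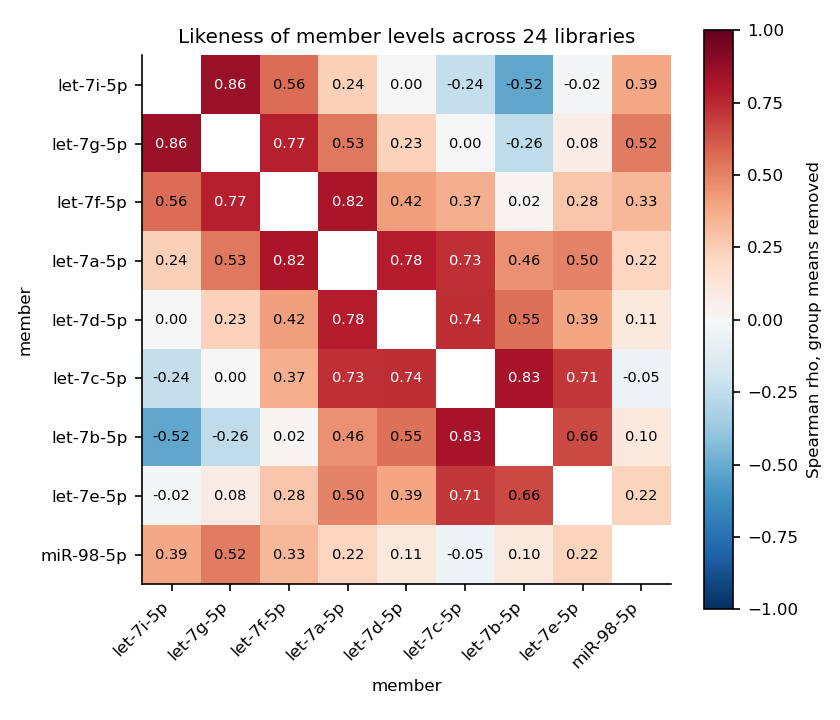
Spearman's rho between the log2 CPM of each pair of members over 24 libraries, after the mean of each group was removed, from blue (-1) over white (0) to red (1). let-7g with let-7i (0.86) and let-7b with let-7c (0.83) are the most alike pairs, and let-7b with let-7i (-0.52) the least.

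Of 192 other miRNAs of at least 100 CPM, miR-378d (0.76), miR-148b-3p (0.72), miR-10a-5p (0.69), miR-1843b-5p (0.63) and miR-1843a-5p (0.60) were most like the summed family by the same measure over 24 libraries. miR-322-5p (-0.65), miR-872-5p (-0.63) and miR-196a-5p (-0.56) went furthest against it. miR-872-5p also separated the 6 low let-7j libraries, with 224 to 316 CPM against 367 to 496 CPM in the other 18. Of 246 miRNAs of at least 50 CPM, miR-194-5p and miR-674-3p were the others whose levels did not overlap, and all 3 were lower in the 6.

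The opposite, 3p, arms of the 12 hairpins were scarce apart from 1. let-7d-3p is shown because it was the 3p arm with the highest level, with let-7g-3p and let-7b-3p, the 3p arms that had an unadjusted p under 0.05 in any comparison (seeds in capitals).
let-7d-3p: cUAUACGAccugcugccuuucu
let-7g-3p: aCUGUACAggccacugccuugc
let-7b-3p: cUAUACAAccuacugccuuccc
let-7d-3p averaged 393 ± 50.8 CPM (SD, n = 24) and held 11.9% of the reads of its hairpin, 8.84% to 16.6% by library. For the other 11 hairpins the 3p share ran from 0.0211% at let-7g to 2.13% at let-7a-1, taken against the reads placed at that copy. let-7a-1-3p and let-7c-2-3p have the same sequence and had 26126 and 26076 reads, so their values are shared. All 12 3p arms passed the filter, and 0 of 12 had an adjusted p under 0.05 in any of the 6 comparisons by edgeR.

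An unadjusted p under 0.05 was found for 1 of the 12 in each of 4 comparisons, where 5.33% (training in wild type), 6.19% (training averaged over genotypes), 2.23% (interaction) and 1.2% (genotype in sedentary mice) of all 582 had one. let-7g-3p averaged 4.48 ± 1.56 CPM in trained wild type and 7.15 ± 2.92 CPM in sedentary wild type (SD, n = 6 each). Its log2 fold change was -0.66 (SE 0.30, adjusted p = 0.779 in edgeR's test). It rests on 1004 reads in 24 libraries. Averaged over genotypes it was -0.47 (SE 0.21). let-7b-3p averaged 44.7 ± 10.3 CPM in trained kinase dead, 36.6 ± 4.21 in sedentary kinase dead, 40.5 ± 5.51 in trained wild type and 45.1 ± 4.28 in sedentary wild type. Its interaction was 0.44 (SE 0.20) and its value for genotype in sedentary mice -0.30 (SE 0.14), with adjusted p of 0.993 and 0.991 in edgeR's test. let-7i-3p, at 87.8 ± 34.8 CPM, had -0.53 (SE 0.29) for training in wild type beside the -0.36 of let-7i-5p. Between the 5p and 3p arms of 1 hairpin, rho was 0.073 for let-7g, 0.14 for let-7i, 0.24 for let-7d and 0.41 for let-7b (24 libraries, group means removed). The median over pairs of members was 0.378, but these 3p arms averaged from 5.31 CPM (let-7g-3p) to 393 CPM (let-7d-3p), below every member. Counting error weighs more at such levels and can lower rho, and its part was not tested.

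Some let-7 genes are known to be transcribed together with genes of the miR-99/100 and miR-125 families, whose 5 members here were miR-99a at 27520 ± 6726 CPM, miR-125b at 7922 ± 1428, miR-100 at 7169 ± 1274, miR-99b at 2976 ± 493 and miR-125a at 2577 ± 409 (SD, n = 24, 5p arms). miR-99a and miR-100 are known for repressing mTOR. Of these 5, 0 had an adjusted or unadjusted p under 0.05 in any comparison by edgeR. For training in wild type 4 of 5 lay above 0, with a median of 0.14, where all 9 members lay below it. For genotype in trained mice 5 of 5 lay below 0, with a median of -0.11, where all 9 members lay above it. For training in kinase dead 5 of 5 lay above 0 (median 0.037), as did all 9 members. For genotype in sedentary mice 5 of 5 lay below 0 (-0.069), as did all 9. Averaged over genotypes 4 of 5 were above 0, and 3 of 5 for the interaction. Of all 582, 46.6% to 52.9% lay above 0 by comparison. Between mates and members of 1 cluster, rho was 0.32 to 0.50 (24 libraries, group means removed). Whether the mates and the members differ was not tested.

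let-7j averaged 1623 ± 440 CPM in trained kinase dead, 1709 ± 282 in sedentary kinase dead, 1589 ± 243 in trained wild type and 1646 ± 440 in sedentary wild type (SD, n = 6 each). Its log2 fold change for training in wild type was -0.051, against -0.36 for let-7i. Adding the let-7j reads to let-7i gave -0.34 for let-7i, and the median of the 9 members was -0.13. Between the levels of let-7j and let-7i, rho was 0.49 (24 libraries, group means removed). The mismatch setting of the alignment was not given, and whether let-7j counts include reads of let-7i was not tested.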

How the data were processed

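Small RNA was sequenced from 24 libraries of mouse subcutaneous adipose tissue, made with an NEBNext small RNA kit from TRIzol-extracted RNA, per the labels' protocols. The tools named are CASAVA 1.8.2 and Trim Galore, with Bowtie2 as well as featureCounts, and the build is mm10, per the submitters' processing notes; settings for mismatches and multiple mapping were not given in the sources used here. A file that the authors deposited holds read counts for each mature locus, not normalized. Loci of the same accession were summed to 1907 mature miRNAs; 78 accessions had more than 1 locus. Names came from RefSeq (1670 loci) and GENCODE vM21 hairpins (375 loci).

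All 4 groups were fitted together in edgeR 4.0.16 (R 4.3.3; filterByExpr, TMM, quasi-likelihood test), which kept 582 miRNAs; those below the filter held 0.0150% of reads. P-values were adjusted over the 582 by Benjamini-Hochberg, and an adjusted p under 0.05 was a call. The fit was tested on simulated data. DESeq2 1.42.0, other scalings, no filter, every locus singly, only the compared groups, a lymphocyte covariate and each library left out were the alternatives. Leaving out the libraries with let-7j under 6% of let-7i, and adding let-7j reads to let-7i, were chosen after seeing the data. Named were all 9 members, their 3p arms, the 5 cluster mates, same-seed rows, and the 5 highest and 3 lowest by likeness; let-7j and the miRNAs that separate its low libraries were named after their values were seen. The members and lists were chosen with earlier results of these data known. Replicate numbers follow accession order and only name a library.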

Additional observations from a re-analysis of the deposited data

Results flagged for a closer look

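Of 80 sets of 6 libraries examined (the family sum, the let-7j ratio, and each member's level and share, by group), 7 held a library whose gap to the nearest other exceeded 0.625 of the whole range, Dixon's limit for 6 samples; chance gives about 1 in 20. let-7j made up 4.54% of let-7i in sedentary kinase dead 5, against 7.40% to 8.26% in the other 5 libraries of that group. let-7d stood at 4107 CPM in trained kinase dead 2, against 2610 to 3106 CPM in the others, and at 3558 CPM in trained wild type 4, against 2421 to 2809 CPM. let-7e was low in trained wild type 1, at 901 CPM against 1166 to 1308 CPM, in a library rich in miR-150-5p. miR-98 stood at 701 CPM in sedentary kinase dead 2, against 488 to 528 CPM, and there it made up 0.572% of the family, against 0.358% to 0.425%. let-7f made up 29.3% of the family in sedentary kinase dead 4, against 25.3% to 26.4%. Outside the members, reads were counted as let-7j in all 24 libraries, at 1029 CPM in the lowest and 2334 CPM in the highest. On the same scale 3 reads stood for at most 1.76 CPM. That floor does not tell let-7j from let-7i, which differs at 1 of its first 22 bases. Whether reads of let-7i were counted as let-7j was not tested.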

How the results depend on the processing

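Under every alternative run, 0 miRNAs were called in each comparison, and the smallest adjusted p of any member over 35 fits was 0.371 (let-7i, training in wild type, lymphocyte score as covariate). No paired analysis was possible because the labels give no replicate numbers. Of the members' log2 fold changes, 476 kept their sign and 46 did not under the alternatives other than leaving out 1 library, as did 1137 and 159 on leaving out 1 library; the cause was not tested. Without the 7 libraries rich in miR-150-5p the values that turned were let-7a 0.038, let-7b 0.0029, let-7c 0.16 and let-7d 0.11 for training in wild type, let-7e -0.029 and miR-98 -0.042 for training in kinase dead, let-7b 0.013 averaged over genotypes, let-7e 0.012 and let-7f 0.013 for genotype in sedentary mice, and let-7c -0.0076 for genotype in trained mice. Without the 6 low let-7j libraries they were let-7a 0.084, let-7c 0.14, let-7d 0.15 and let-7g 0.011 for training in wild type, let-7e -0.062, let-7i -0.00016 and miR-98 -0.18 for training in kinase dead, let-7f 0.0096 and let-7g 0.018 averaged over genotypes, let-7a -0.0080, let-7e -0.024 and miR-98 -0.011 for the interaction, let-7a 0.071, let-7c 0.029, let-7d 0.0040, let-7e 0.13, let-7f 0.065 and let-7g 0.022 for genotype in sedentary mice, and miR-98 -0.10 for genotype in trained mice. With no filter they were let-7c 0.045 and let-7d 0.030 for training in wild type, let-7e -0.0045 and miR-98 -0.028 for training in kinase dead, and let-7a 0.045, let-7b 0.015, let-7e 0.028 and let-7f 0.066 for genotype in sedentary mice. With only the compared groups let-7c was 0.0051 for training in wild type. With every locus singly let-7e was -0.0093 and miR-98 -0.0088 for training in kinase dead, let-7a -0.0097 averaged over genotypes, and let-7f 0.0048 for genotype in sedentary mice. let-7e was -0.0035 for training in kinase dead with the lymphocyte covariate. let-7f for genotype in sedentary mice was 0.0081 with DESeq2 size factors, 0.016 with totals and 0.0081 in the DESeq2 test. On leaving out each library in turn, with scaling redone, the values that turned had these ranges. Training in wild type gave let-7c -0.12 to 0.045 and let-7d -0.12 to 0.012. Training in kinase dead gave let-7a -0.00011 to 0.14, let-7b -0.040 to 0.070, let-7e -0.11 to 0.10, let-7f -0.082 to 0.15, let-7g -0.092 to 0.17, let-7i -0.16 to 0.14 and miR-98 -0.11 to 0.017. Averaged over genotypes, let-7a had -0.060 to 0.036, let-7b -0.11 to 0.0033, let-7c -0.015 to 0.11 and let-7f -0.11 to 0.016. Genotype in sedentary mice gave let-7a -0.040 to 0.078, let-7b -0.082 to 0.028, let-7c -0.11 to 0.022, let-7d -0.12 to 5.2e-05, let-7e -0.11 to 0.097, let-7f -0.053 to 0.13, let-7g -0.16 to 0.065 and let-7i -0.19 to 0.020, and genotype in trained mice miR-98 -0.011 to 0.18. The interaction was above 0 for 9 of 9 members without any 1 library, with a median between 0.083 and 0.26. The log2 difference of the summed family's group means for the interaction was 0.26, and 0.054 without the 6 low let-7j libraries. Over the 6 comparisons its other 23 alternative values, and all 96 on leaving out 1 library, moved by less than the pooled SD of 0.17. That SD is the spread between libraries, and most of the differences were smaller, so values within it could vanish or turn. Without the 6 low let-7j libraries, training in wild type went from -0.15 to -0.035 and training in kinase dead from 0.11 to 0.019. Genotype in trained mice went from 0.18 to 0.067, and genotype in sedentary mice turned from -0.076 to 0.014. Counting 1 locus of let-7a, let-7c and let-7f left let-7f with 16.4% to 17.2% of the family by group and let-7g with 24.5% to 24.8%.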
